A study of Mus musculus with 8 samples.

Results

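Slc1a4 and 9 further amino acid transporter genes were followed through 8 RNA-seq libraries of biliary epithelial cells, 10 genes of the 46603 rows of the count table. Slc1a4 was selected on its counts in this same comparison, because none of the EGFP-negative libraries held a read of it, so its values in this comparison are described here and not tested. Slc1a1, Slc1a2, Slc1a3, Slc1a5, Slc3a2, Slc7a5, Slc7a11, Slc38a1 and Slc38a2 were added for belonging to its gene family or for carrying the same or exchanged amino acids, and these 9 were tested where their counts allowed. Cells were sorted from the livers of 4 mice of 8 weeks of age that were heterozygous for R26rtTA and for H2B-EGFP and had been given doxycycline from birth to postnatal day 5. Each mouse (JV602, JV621, JV624 and JV6314) gave an EGFP-positive library, called label-retaining liver cells or LLRCs, and an EGFP-negative library, called non-LRC cells, both sorted as EpCAM-positive and CD45-negative. The question was which transcripts distinguish slowly dividing biliary cells, which keep the diluting EGFP label, from the other biliary cells.

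Both groups shared the genotype and the doxycycline. The transactivator is driven by the broadly active Rosa26 locus, and the H2B-EGFP transgene is also active in hematopoietic cells without doxycycline. The mice of the study were of mixed C57BL/6 and CBA background.

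Amino acids cross the plasma membrane through families of solute carriers that differ in substrate and in driving ions. The Slc1 family holds the sodium-dependent glutamate and aspartate transporters and a pair of neutral amino acid exchangers, Slc1a4 (ASCT1, which exchanges alanine, serine, cysteine and threonine) and Slc1a5 (ASCT2, which also takes glutamine). Slc3a2 encodes the 4F2 heavy chain, a glycoprotein that brings light chains such as Slc7a5 and Slc7a11 to the cell surface, while Slc38a1 and Slc38a2 encode sodium-coupled carriers that accumulate glutamine and other neutral amino acids and so feed the exchangers.

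The LLRC libraries held 7860021 to 9851819 counts and the non-LRC libraries 4670132 to 8056103, and 18488 to 20430 and 14234 to 18930 genes were detected. The non-LRC libraries varied more among themselves (common dispersion 0.812, against 0.181 in LLRCs). The non-LRC library of JV621 stood apart, since 15.6% of the 13605 genes tested had no read in it, against 0.345% to 1.57% in 6 other libraries and 7.75% in the non-LRC library of JV6314. Epcam, a marker of the sort, stood at 583 ± 48.6 CPM in LLRCs against 551 ± 148 CPM in non-LRC cells, and Krt19, a keratin of biliary cells, at 116 ± 28 CPM and 134 ± 33.1 CPM (CPM, counts scaled by TMM to a common library size, SD, n = 4). For Ptprc, the gene of CD45, the counts were 5, 34, 14 and 59 in LLRCs against 0, 0, 0 and 7 in non-LRC cells. The summed level of 10 endothelial markers was 33.4 to 66 CPM in LLRCs and 218 to 943 CPM in non-LRC cells, and that of 10 hepatocyte markers was 2903 to 3379 CPM and 2144 to 6723 CPM. For 8 stellate cell and fibroblast markers the sums were 275 to 884 CPM and 698 to 2792 CPM, and for 10 leukocyte markers 12.2 to 30.1 CPM and 16.1 to 41.8 CPM, with the T cell marker Cd3e and the B cell marker Cd79a at 3 counts or fewer in every library. The 11 cholangiocyte markers summed to 115192 to 221855 CPM in LLRCs and 66922 to 162451 CPM in non-LRC cells. Pancreatic acinar markers reached 1932 CPM in the non-LRC library of JV6314 and at most 2.5 CPM elsewhere. The part of these markers in the results below was not tested, and in such bulk samples fewer cells of a type and less RNA per cell cannot be told apart.

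Slc1a4 (ENSMUSG00000020142, chr11:20302180-20332713 on the minus strand of GRCm38, 3926 bases of exon that overlap no other gene; like the other 9, it is protein-coding in GENCODE M21, the source of all gene coordinates) had 44, 24, 29 and 20 counts in LLRCs, where values are given for JV602, JV621, JV624 and JV6314 in this order here and for the genes that follow. Each of the 4 non-LRC libraries had 0 counts. In LLRCs this was 4.27, 2.84, 4.27 and 2.22 CPM, a mean of 3.4 ± 1.03 CPM (SD, n = 4). These are the values for which the gene was chosen, so the separation of the groups is not a test. Set against a floor of 3 counts in each non-LRC library, Slc1a4 was at least 6.57-fold higher in LLRCs, a bound that covers counting error only. At the mean LLRC level, the non-LRC libraries would have held 27.1, 16.3, 21.5 and 17.2 counts of Slc1a4. At the lowest LLRC level they would have held between 10.6 and 17.7 counts. Of all genes tested, at any level, 1.57%, 15.6%, 1.41% and 7.75% had no read in these libraries (JV602, JV621, JV624 and JV6314). The share among genes near the level of Slc1a4 was not taken, and the part of such gaps in its zeros was not tested. The bound lay between 5.51-fold and 7.7-fold when any library or mouse was left out. Those fits reuse the zeros for which the gene was chosen, so this range is not a test either.

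Among the 13605 genes tested, 7 (0.0515%) had no read in any non-LRC library and reads in every LLRC library, and 0 had the opposite pattern. These 7 were Slc1a4, Pbk, Fgr, Cxcl10, Pigw, Spdya and Mkrn3. The groups differed in depth, at 7860021 to 9851819 counts in LLRC libraries and 4670132 to 8056103 in non-LRC libraries. At most 1.21% of the genes tested had no read in an LLRC library, against 1.41% to 15.6% in the non-LRC libraries. The numbers of genes with each pattern are therefore not on an equal footing, and the part of depth in them was not tested. The protein-coding genes closest to Slc1a4 across the 8 libraries were found by the root mean square distance of their centred log2 CPM. Pigw, of glycosylphosphatidylinositol anchor synthesis, was nearest at 0.246, followed by the Src family kinase Fgr at 0.343 and the makorin Mkrn3 at 0.365. The fucosyltransferase Fut1 followed at 0.429 and the mitotic kinase Pbk at 0.494. Fut1 lay just outside the pattern, with 30, 19, 20 and 18 counts in LLRCs against 2, 0, 0 and 0 in non-LRC cells. Their likeness to Slc1a4 is a description of 8 libraries at low counts.

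The 250 bases before the RefSeq start of Slc1a4 and of Slc7a11 follow (RefSeq, GRCm38.p6), because Slc7a11 is a known target of the amino acid response and Slc1a4 is the gene around which the others were gathered. Both genes lie on the minus strand, and the sequences read 5′ to 3′ toward the start. Capitals mark TGATGNAAN, the core of the element bound by ATF4 with its C/EBP partner, searched on both strands.
Slc1a4, chr11:20332714-20332963: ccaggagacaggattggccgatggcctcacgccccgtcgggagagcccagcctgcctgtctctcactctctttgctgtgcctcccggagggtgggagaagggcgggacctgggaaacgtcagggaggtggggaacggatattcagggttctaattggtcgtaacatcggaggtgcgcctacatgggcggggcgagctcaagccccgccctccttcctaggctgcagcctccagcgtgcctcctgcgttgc
Slc7a11, chr3:50443614-50443863: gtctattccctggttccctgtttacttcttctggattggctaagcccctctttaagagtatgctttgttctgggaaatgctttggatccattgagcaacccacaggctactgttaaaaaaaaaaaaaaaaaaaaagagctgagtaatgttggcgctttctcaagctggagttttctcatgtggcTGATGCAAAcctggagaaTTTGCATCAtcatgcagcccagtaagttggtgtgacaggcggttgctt
The motif occurred in 1129 of 32851 RefSeq promoters of this length (3.44%). Of the 7 members with an entry in the set of promoters used (all but Slc1a5, Slc7a5 and Slc38a1), Slc7a11 held it, with matches 66 and 48 bases before the start in opposite orientation. The Slc1a4 stretch did not hold these letters. A match describes the sequence and is not evidence of binding in these cells. Its absence from these 250 bases says nothing of sites elsewhere in or around a gene.

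**Figure D1:**
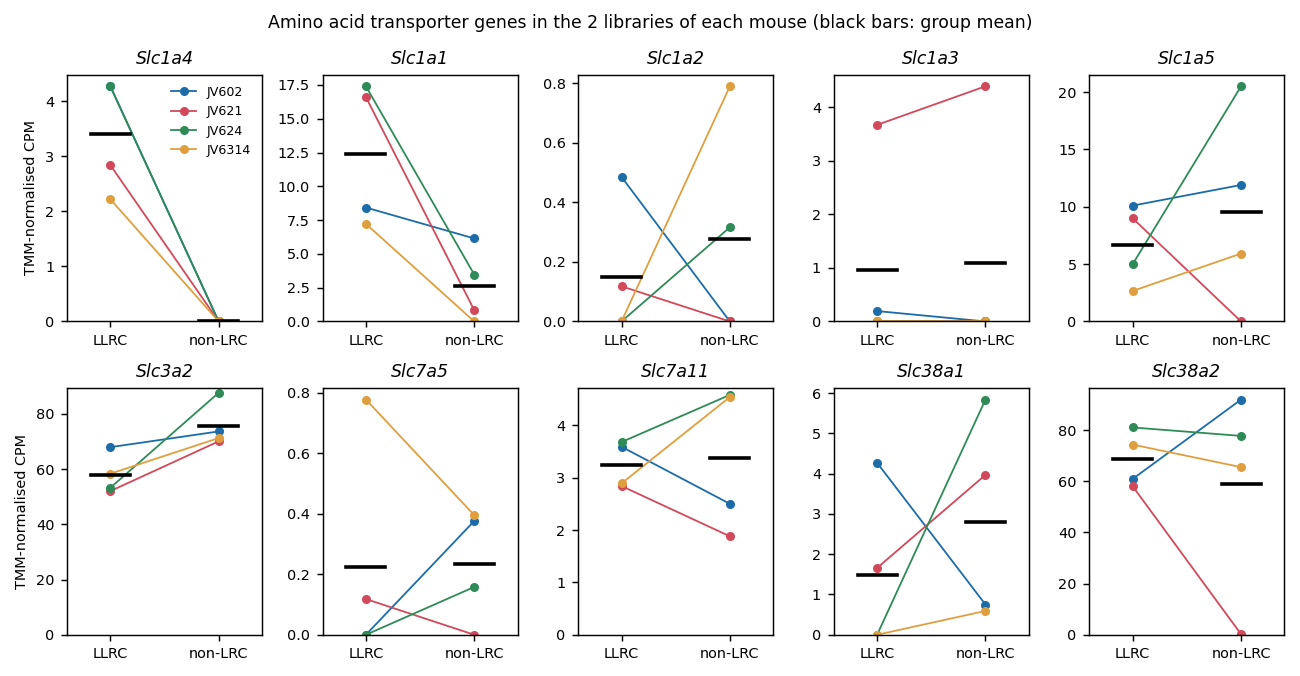
TMM-normalised CPM of the 10 genes in the LLRC and non-LRC library of each mouse, with a line joining the libraries of a mouse and a black bar at the mean of 4. Every line of Slc1a4 and Slc1a1 runs downward from LLRC to non-LRC (the Slc1a4 points of JV602 and JV624 coincide at 4.27 CPM), every line of Slc3a2 runs upward, and Slc38a2 drops to 0.209 CPM in the non-LRC library of JV621.

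The plot by mouse shows each gene on its own scale, since CPM is not corrected for gene length. Of the 9 members besides Slc1a4, 6 passed the expression filter and were tested. None of these 6 had an adjusted p below 0.05 in edgeR's quasi-likelihood test, where 0 of 13605 genes passed (0%), and 0 of the 6 had an unadjusted p below 0.05, against 702 genes (5.16%) of all those tested, 217 higher (1.6%) and 485 lower (3.56%) in LLRCs. DESeq2's Wald test called 221 genes (1.62%) and edgeR's exact test 154 (1.13%) at an adjusted p below 0.05, limma voom called 0, and the quasi-likelihood test without an expression filter called 11 of 27591 genes (0.0399%). None of these called any of the 6. Slc1a1 lay higher in every LLRC library than in any non-LRC library, as did 2.15% of all genes tested, and Slc3a2 lay lower in every LLRC library, as did 1.91%. Slc1a1 was higher in LLRCs within all 4 mice, as were 7.74% of the genes tested, and Slc3a2 was lower within all 4, as were 5.53%. The groups of the other 4 tested members overlapped.

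Slc1a1 (ENSMUSG00000024935, chr19:28835049-28913960), the EAAT3 carrier that takes up glutamate, aspartate and cysteine, was the other Slc1 gene whose groups did not overlap. It had 87, 140, 118 and 65 counts in LLRCs against 49, 4, 22 and 0 in non-LRC cells. The levels were 12.4 ± 5.31 CPM and 2.61 ± 2.78 CPM (SD, n = 4). The lowest LLRC library stood at 7.22 CPM and the highest non-LRC library, that of JV602, at 6.14 CPM. Without that library the non-LRC mean was 1.44 CPM. It also had the lowest endothelial marker sum of the non-LRC libraries, 218 CPM, against 943, 468 and 782 CPM in those of JV621, JV624 and JV6314, where Slc1a1 stood at 0.835, 3.47 and 0 CPM. The part of those cells in the difference was not tested. Within mice the log2 difference was 0.44 in JV602, 3.93 in JV621, 2.23 in JV624 and 4.78 in JV6314. The largest differences, in JV621 and JV6314, came from non-LRC libraries with 4 and 0 counts of Slc1a1. In those libraries 15.6% and 7.75% of all genes tested had no read, more than in any other library. Whether such gaps played a part in the difference was not tested. In edgeR's quasi-likelihood test the log2 fold change was 2.22 (standard error, SE, 1.02, unadjusted p = 0.0578, adjusted p = 0.981). With the mouse as a block it was 3.08 (unadjusted p = 0.0455, adjusted p = 1 in that edgeR fit). The adjusted p ranged from 0.45 to 1 over all alternatives. The exact two-sided permutation p of the difference in mean CPM was 0.0286, the smallest that 4 libraries against 4 allow, and the exact sign-flip p over the 4 mice was 0.125, the smallest for 4 pairs. Slc1a1 was 1 of 9 members given this permutation test, with no adjustment over the 9. Slc3a2 had the same permutation p, and the smallest among the remaining members was 0.429, for Slc38a1. In exons, 31.9% of the bases of Slc1a1 overlap 4430402I18Rik on the opposite strand, and counting without strand cannot assign reads there. That gene had 27, 80, 67 and 14 counts in LLRCs against 4, 18, 47 and 23 in non-LRC cells, so its groups overlapped.

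Slc1a5 (ENSMUSG00000001918, chr7:16781340-16798274), the glutamine exchanger, had 104, 76, 34 and 24 counts in LLRCs against 95, 0, 130 and 30 in non-LRC cells. The levels were 6.68 ± 3.46 CPM and 9.58 ± 8.76 CPM (SD, n = 4). The non-LRC libraries held both the lowest and the highest value, at 0 CPM in JV621 and 20.5 CPM in JV624. The log2 fold change was -0.52 (SE 1.08, adjusted p = 0.9999 in edgeR's quasi-likelihood test), and leaving out single libraries or mice moved it between -1.1 and 0.28. Without the non-LRC library of JV624 it turned to 0.16, and the non-LRC mean to 5.94 CPM. Slc1a5 was read in 3 of 4 non-LRC libraries.

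The other glutamate transporters of the family were barely read. Slc1a2 (GLT-1, ENSMUSG00000005089, chr2:102658659-102790784), which is also known from hepatocytes around the central vein, had 5, 1, 0 and 0 counts in LLRCs against 0, 0, 2 and 4 in non-LRC cells. Slc1a3 (GLAST, ENSMUSG00000005360, chr15:8634124-8710764) had 2, 31, 0 and 0 counts in LLRCs against 0, 21, 0 and 0 in non-LRC cells. Its reads thus came almost wholly from mouse JV621, in both of its libraries. Without JV621 the Slc1a3 mean was 0.0646 CPM in LLRCs and there was no read in non-LRC cells, while the means with JV621 were 0.965 and 1.1 CPM. Neither gene passed the expression filter, and the exact permutation p was 0.714 for Slc1a2 and 1 for Slc1a3.

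Slc3a2 (ENSMUSG00000010095, chr19:8706882-8723369), the 4F2 heavy chain, was read at a steady level in all libraries. It had 700, 440, 362 and 525 counts in LLRCs against 588, 335, 555 and 361 in non-LRC cells, or 67.9, 52, 53.2 and 58.3 CPM and 73.6, 70, 87.6 and 71.2 CPM. The LLRC library was the lower one in 4 of 4 mice, and the groups did not overlap. The means were 57.9 ± 7.19 CPM and 75.6 ± 8.14 CPM (SD, n = 4), with log2 fold change -0.39 (SE 0.24, unadjusted p = 0.145, adjusted p = 0.9999 in edgeR's quasi-likelihood test). It stayed between -0.5 and -0.27 with any library or mouse left out, and the adjusted p over all alternatives was between 0.486 and 1. The exact permutation p was 0.0286, again the smallest possible, and the exact sign-flip p was 0.125. Over all genes tested the median log2 fold change was -0.015, with quartiles of -0.386 and 0.352, so Slc3a2 lay at the lower quartile.

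The light chains among the members were read far less. Slc7a5 (LAT1, ENSMUSG00000040010, chr8:121881150-121907694), which imports leucine and other large neutral amino acids, had 0, 1, 0 and 7 counts in LLRCs against 3, 0, 1 and 2 in non-LRC cells, too few to test in the model. Slc7a11 (xCT, ENSMUSG00000027737, chr3:49892526-50443614), which exchanges cystine for glutamate, had 37, 24, 25 and 26 counts in LLRCs against 20, 9, 29 and 23 in non-LRC cells. Every library therefore held reads of Slc7a11, and the groups overlapped. It stood at 3.25 ± 0.446 CPM and 3.37 ± 1.39 CPM (SD, n = 4), with log2 fold change -0.06 (SE 0.51, adjusted p = 0.9999 in edgeR's quasi-likelihood test).

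Heavy and light chains were next compared per kilobase of exon, adding 4 light chains that are not members, a set chosen after values had been seen and therefore given without a test. The light chains were mostly Slc7a6 (y+LAT2) and Slc7a7 (y+LAT1), which exchange cationic for neutral amino acids. Slc7a6 stood at 2.98 ± 1.26 CPM per kilobase in LLRCs against 1.93 ± 0.769 in non-LRC cells, and Slc7a7 at 2.67 ± 1.2 and 1.79 ± 0.875. The groups of both overlapped (adjusted p = 0.9999 for each in edgeR's quasi-likelihood test), with Slc7a6 higher in LLRCs in 2 of 4 mice and Slc7a7 in 3 of 4. Slc7a8 was at 0.504, 0.0709, 0.0294 and 0.2 CPM per kilobase in LLRCs and was read in non-LRC cells in JV6314 alone, at 0.986, and Slc7a10 had no read. The 6 light chains summed to 6.31, 5.86, 5.78 and 6.62 CPM per kilobase in LLRCs and to 5.6, 4.93, 3.12 and 3.45 in non-LRC cells. The heavy chain was 3.05, 2.51, 2.61 and 2.49 times this sum in LLRCs and 3.73, 4.02, 7.96 and 5.84 times in non-LRC cells. The means of this ratio were 2.67 ± 0.259 and 5.39 ± 1.96 (SD, n = 4), a description of a composite with no share of all genes to set beside it. It was highest in the non-LRC libraries of JV624 and JV6314, which also had the highest hepatocyte marker sums, 6723 and 6038 CPM. The same libraries had the highest stellate cell and fibroblast sums, 2792 and 2385 CPM, and the lowest cholangiocyte sums, 66922 and 105354 CPM. The part of those cells in the ratio was not tested.

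**Figure D2:**
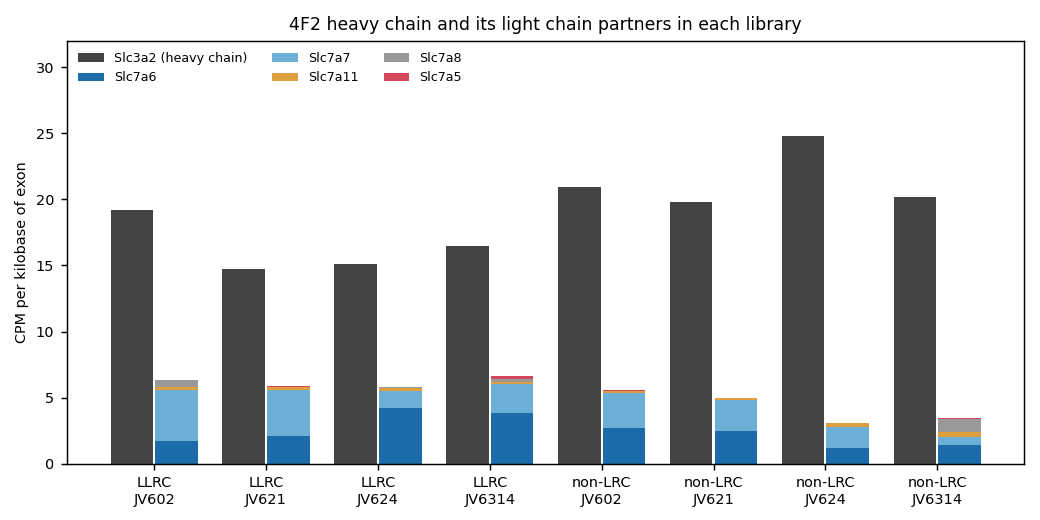
CPM per kilobase of exon of the heavy chain Slc3a2 (dark bars) and of its light chain partners (stacked bars) in each of the 8 libraries, from 0. The dark bars are 14.7 to 19.2 in LLRCs and 19.8 to 24.8 in non-LRC cells, and the stacks, made up mostly of Slc7a6 and Slc7a7, are 5.78 to 6.62 in LLRCs and 3.12 to 5.6 in non-LRC cells.

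Slc38a1 (SNAT1, ENSMUSG00000023169, chr15:96571418-96642913) was uneven between mice, with 44, 14, 0 and 0 counts in LLRCs against 6, 19, 37 and 3 in non-LRC cells. The LLRC library was higher in JV602 and the non-LRC library in the other 3 mice. Its levels were 1.48 ± 2.01 CPM and 2.79 ± 2.56 CPM (SD, n = 4), with log2 fold change -0.89 (SE 1.39, adjusted p = 0.9999 in edgeR's quasi-likelihood test). It ranged from -2.62 without mouse JV602 to 0.18 without JV624. The LLRC mean was 0.552 CPM without JV602, and the non-LRC mean 1.77 CPM without JV624.

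Slc38a2 (SNAT2, ENSMUSG00000022462, chr15:96687392-96699730), a carrier whose transcript is known to be induced when amino acids are scarce, was read much more. It had 628, 490, 551 and 669 counts in LLRCs against 734, 1, 492 and 332 in non-LRC cells. The single read in the non-LRC library of JV621 set it apart from all others, which were between 58 and 91.9 CPM. The non-LRC mean was 58.8 ± 40.5 CPM with that library and 78.4 ± 13.2 CPM without it, against 68.5 ± 11 CPM in LLRCs. The log2 fold change of 0.22 (SE 0.97, adjusted p = 0.9999 in edgeR's quasi-likelihood test) turned to -0.18 without that library. Such gaps were common in it. Of 6264 genes with at least 10 CPM in each of the other 3 non-LRC libraries, 311 (4.96%) had at most 1 count in that of JV621, against 0 to 2 genes in any LLRC library, 6 and 7 in the non-LRC libraries of JV602 and JV624, and 59 in that of JV6314.

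Per kilobase of exon, Slc3a2 was the highest of the 10 genes in both groups, at 16.4 ± 2.04 CPM per kilobase in LLRCs against 21.4 ± 2.31 in non-LRC cells (SD, n = 4). Slc38a2 followed at 7.75 ± 1.24 and 6.66 ± 4.59. In LLRCs these were followed by Slc1a5 at 1.6 ± 0.828, Slc1a1 at 1.5 ± 0.643 and Slc1a4 at 0.865 ± 0.263, whose neighbouring ranges overlapped, and then by Slc7a11 at 0.233 ± 0.032, whose range lay below that of Slc1a4. Slc1a3, Slc38a1, Slc7a5 and Slc1a2 lay at 0.113 or less in LLRCs and could not be ordered by their ranges. In non-LRC cells only the range of Slc3a2 was separate from that of its neighbour. With the longest transcript in place of all exons, Slc1a1 came before Slc1a5 in LLRCs and Slc38a1 before Slc7a11 in non-LRC cells.

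**Figure D3:**
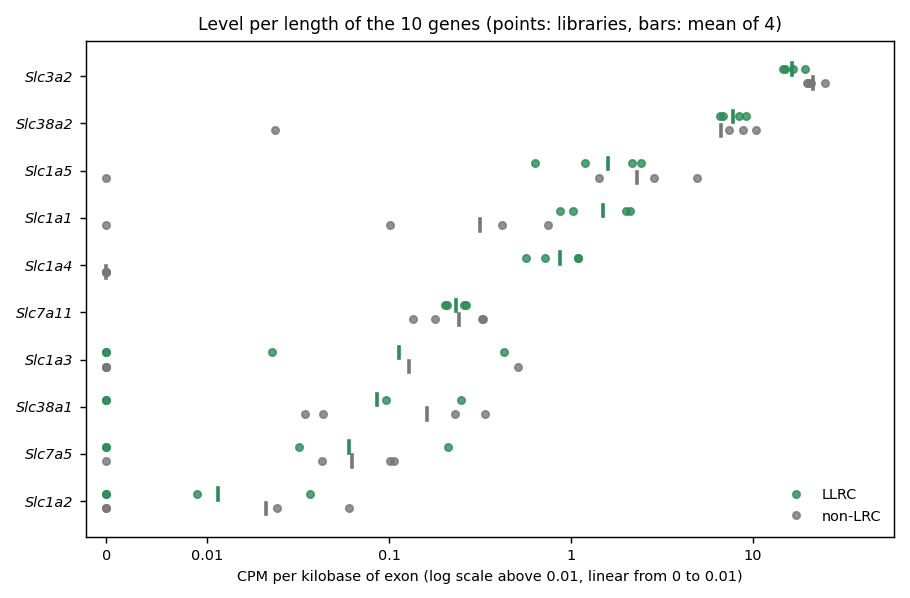
CPM per kilobase of exon of the 10 genes in each library (points) with the mean of 4 (bars), on an axis that is linear from 0 to 0.01 and logarithmic above. The points of Slc3a2 lie furthest right in both groups, the LLRC points of Slc1a4 lie above those of Slc7a11 and overlap those of Slc1a1 while its 4 non-LRC points are at 0, and single non-LRC points of Slc38a2, Slc1a5 and Slc1a1 lie far to the left of the rest.

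Of 43 other amino acid transporters, 36 had reads and 16 passed the expression filter. None had an unadjusted p below 0.05 in edgeR's quasi-likelihood test (smallest p = 0.132), and none was called by DESeq2, the exact test or limma. Among the 16, 10 had positive and 6 negative log2 fold changes, with a median of 0.19 beside -0.015 for all genes tested. The highest per kilobase were Slc38a4 (SNAT4, a carrier of neutral amino acids typical of liver), Slc6a6, which takes up taurine, Slc7a4, and Slc43a2 (LAT4). Slc38a4 stood at 689 ± 162 CPM in LLRCs against 771 ± 556 CPM in non-LRC cells, and Slc6a6 at 186 ± 60.4 and 174 ± 63.1 CPM (SD, n = 4). The corresponding means were 39.2 and 32.1 CPM for Slc7a4 and 46.2 and 37.9 CPM for Slc43a2. Slc38a3 (SNAT3), which moves glutamine in hepatocytes, had 76, 28, 9 and 26 counts in LLRCs against 37, 1, 155 and 112 in non-LRC cells (log2 fold change -1.78, SE 1.07). Without mouse JV624 it was -0.98, and without JV602 -2.64. Slc38a3 was highest in the non-LRC libraries of JV624 and JV6314, those with the highest hepatocyte marker sums. The log2 fold changes of Slc7a6, Slc7a7 and the lysosomal Slc38a7 were 0.62, 0.57 and -0.99.

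**Figure D4:**
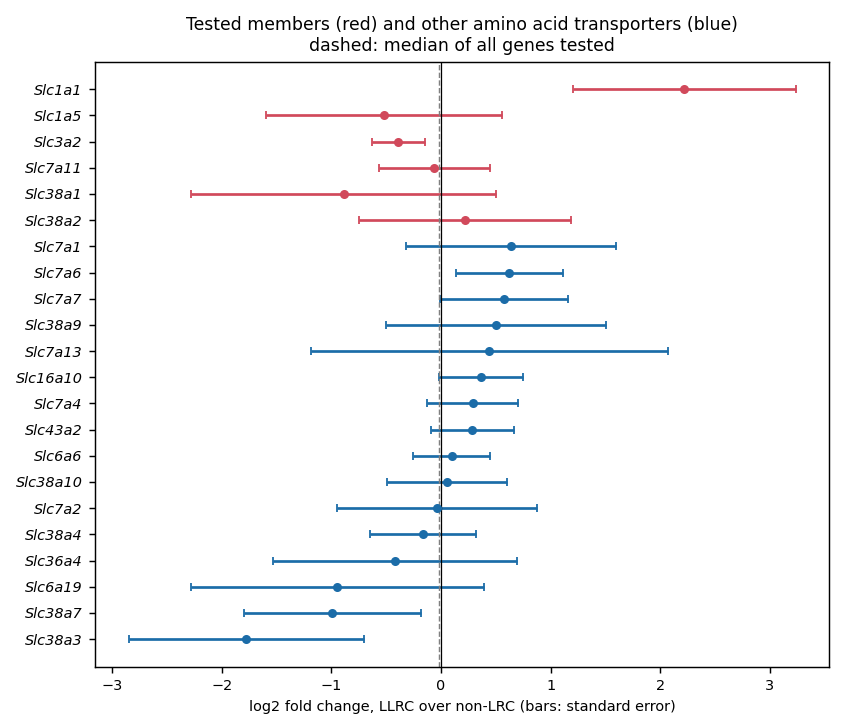
Log2 fold change, LLRC over non-LRC, of the 6 tested members other than Slc1a4 (red) and of 16 other amino acid transporters (blue), with bars of 1 standard error from edgeR's quasi-likelihood fit and the median of all genes tested as a dashed line. Slc1a1, at 2.22, is the largest value on the axis and Slc38a3, at -1.78, the lowest, and Slc3a2, at -0.39, has the shortest bar.

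The enzymes that use glutamate, glutamine and cysteine were the nearest group in function. Of 20 such genes 18 were tested, and 0 passed in edgeR's quasi-likelihood test, with 9 positive and 9 negative log2 fold changes and a median of -0.05. In this test 1 gene, Glul, had an unadjusted p below 0.05, and DESeq2 called the same gene at an adjusted p of 0.017. Over all genes tested these shares were 5.16% and 1.62%, so 1 of 18 is near the background of the first. Glul, which encodes glutamine synthetase, stood at 18, 13.5, 23.1 and 26.3 CPM in LLRCs against 29.2, 43.6, 109 and 145 CPM in non-LRC cells. Each LLRC library was below each non-LRC library, as in 1.91% of all genes tested. The log2 fold change was -2.01 (SE 0.53, unadjusted p = 0.00424, adjusted p = 0.378 in edgeR's quasi-likelihood test), and the adjusted p was between 0.017 and 0.9999 over all alternatives. The hepatocyte marker sums were 3054, 2144, 6723 and 6038 CPM in the non-LRC libraries and 2903 to 3379 CPM in LLRCs. The non-LRC libraries of JV624 and JV6314 were thus high in both, while that of JV621 had the lowest sum of all 8 libraries and more Glul than any LLRC library. Of the 10 hepatocyte markers 9 had negative log2 fold changes, with a median of -1.67. The endothelial sums (218, 943, 468 and 782 CPM) and the stellate cell and fibroblast sums (698, 760, 2792 and 2385 CPM) of the non-LRC libraries stood beside at most 66 and 884 CPM in LLRCs. The part of those cells in the difference was not tested. Ggt1, which splits extracellular glutathione and so supplies cysteine and glutamate, had 108, 63, 37 and 70 counts in LLRCs against 19, 0, 5 and 25 in non-LRC cells, with each LLRC library above each non-LRC library in CPM (2.15% of all genes tested). Its log2 fold change was 1.93 (SE 0.98, adjusted p = 0.9999 in the same edgeR test). It was 2.82 without the non-LRC library of JV6314 and 1.54 without that of JV621, where Ggt1 had 0 counts. In that library of JV621, 15.6% of all genes tested had no read. The log2 fold change of Gclc, of glutathione synthesis, was -0.73 (SE 0.34, adjusted p = 0.977).

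Of 32 genes of the amino acid response, through which ATF4 induces several of these transporters, 27 were tested. None passed in edgeR's quasi-likelihood test, and 1 had an unadjusted p below 0.05 (Cth, lower in LLRCs), beside 5.16% of all genes tested in either direction and 3.56% in this one. The tested genes split into 16 positive and 11 negative log2 fold changes with a median of 0.13, and no other tool called any. Cth, which makes cysteine from cystathionine, had 170, 170, 234 and 140 counts in LLRCs against 96, 101, 2066 and 306 in non-LRC cells. Its log2 fold change of -2.28 (SE 0.95, adjusted p = 0.924) was -0.53 without the non-LRC library of JV624. Cth was highest in the non-LRC libraries of JV624 and JV6314, those with the highest hepatocyte marker sums, 6723 and 6038 CPM. The part of those cells in the difference was not tested. Sesn2, a stress-induced leucine sensor, had 40, 22, 6 and 25 counts in LLRCs against 3, 0, 8 and 7 in non-LRC cells. Its log2 fold change of 1.73 (SE 0.92) was 2.38 without mouse JV624, 1.34 without JV621 and 1.20 without JV602. Gars, a glycyl-tRNA synthetase, stood at 46.8 ± 4.34 CPM and 33.8 ± 3.96 CPM, with each LLRC library above each non-LRC library as in 2.15% of all genes tested (log2 fold change 0.47, SE 0.26, adjusted p = 0.9999).

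All 20 genes of amino acid sensing by mTORC1 were tested, and 0 passed in edgeR's quasi-likelihood test or by the other tools. Of these, 11 had positive and 9 negative log2 fold changes, with a median of 0.11, and 1 had an unadjusted p below 0.05 (Rragd, higher in LLRCs), beside 5.16% of all genes tested in either direction and 1.6% in this one. Rragd, a Rag GTPase of the lysosomal surface, stood at 65.6, 53.5, 77.9 and 81.4 CPM in LLRCs against 43.3, 48.2, 50 and 29 CPM in non-LRC cells. Each LLRC library lay above each non-LRC library, as in 2.15% of all genes tested, and the log2 fold change was 0.71 (SE 0.29, adjusted p = 0.922 in the same edgeR test). The log2 fold changes of Sesn3 and of the mTOR subunit Mlst8, both read at low levels, were 2.35 (SE 1.10) and -1.70 (SE 0.92). That of Sesn3 was 4.16 without the non-LRC library of JV602 and 1.66 without mouse JV624.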

How the data were processed

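With HTSeq (union mode, strand ignored) the authors counted aligned reads on the exons of the Ensembl annotation of GRCm38.p4, and deposited raw counts per gene, not normalized. The aligner is not given in the sources used here. Per the labels, the authors compared the groups with edgeR 3.2.4. A second deposited table holds their fold changes, mean abundances and p-values and was not used. Symbols were found for 46091 of the 46603 identifiers in GENCODE M21 (GRCm38) or a table of gene names, and 512 had none. Promoters were taken from RefSeq (GRCm38.p6).

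From the counts, genes were filtered with edgeR's filterByExpr, scaled by TMM and tested in R 4.3.3 by the quasi-likelihood test of edgeR 4.0.16, fitted to the group alone, with Benjamini-Hochberg adjustment over the 13605 genes tested, at a threshold of 0.05. Differences of single members were tested with the exact two-sided permutation test. Alternatives were DESeq2 1.42.0, limma 3.58.1, edgeR's exact test, other scalings and filters, a block for the mouse, and fits leaving out each library or mouse. The scripts were tested on simulated data. A floor of 3 counts corresponds to 0.291 to 0.626 CPM, and 4 libraries per group, each from another mouse, allow a smallest permutation p of 0.0286. The libraries of a mouse come from the same animal, which pairs them. Their deviations from the group means correlated across genes at 0.0961, 0.0737, 0.00334 and 0.171 (JV602, JV621, JV624 and JV6314).

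The members and gene lists were chosen with earlier results of these data known. Named were the members, the 4 other transporters with the highest level per kilobase and the 4 with the smallest p, the 3 genes with the smallest p in each other list, Epcam, Krt19 and Ptprc, and the 5 protein-coding genes nearest to Slc1a4 by log2 CPM with a prior count of 2. The other light chains and the ratio of heavy to light chains were chosen after values had been seen.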

Additional observations from a re-analysis of the deposited data

Results flagged for a closer look

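A sample far from the other 3 of its group was looked for in 59 groups of 4 libraries, and 5 were found, where chance gives about 1 in 20 groups. That rate is for normally distributed values and does not hold for genes with a few counts beside zeros, such as Slc1a3, Slc7a5 and Ptprc here. Slc1a3 stood at 3.67 CPM in the LLRC library of JV621, against at most 0.194 CPM in the other LLRC libraries. In non-LRC cells it stood at 4.39 CPM in the library of the same mouse and at 0 in the others. Slc7a5 stood at 0.777 CPM (7 counts) in the LLRC library of JV6314, against at most 0.118 CPM in the rest. Ptprc stood at 1.38 CPM (7 counts) in the non-LRC library of JV6314 and had no read in the other non-LRC libraries. Cth stood at 326 CPM in the non-LRC library of JV624, against 12 to 60.4 CPM in the others.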

How the results depend on the processing

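None of the 6 tested members besides Slc1a4, which is given no test, was past the threshold in any of the 21 alternatives that gave it a value. The count of all genes past it, 0, became 221 in DESeq2, 154 in edgeR's exact test, 11 when no filter was applied and 0 to 6 with a library or mouse left out (6 without the non-LRC library of JV602). DESeq2 called 1 enzyme, Glul. With the mouse as a replicate block 0 genes were called and no call changed, but the log2 fold change of Slc7a11 turned to 0.03 and that of Slc38a4 to 0.09 (0.33 in limma). On the log2 CPM scale, and by sign flips over mice, the differences of Slc1a3, Slc1a5 and Slc7a11 turned to 0.13, 0.45 and 0.03. With a library or mouse left out, the log2 fold change changed sign for Slc1a5 (-1.1 to 0.28), Slc7a11 (-0.24 to 0.17), Slc38a1 (-2.62 to 0.18), Slc38a2 (-0.18 to 0.55), Epcam (-0.02 to 0.29), Krt19 (-0.38 to 0.05), Slc38a4 (-0.42 to 0.42), Slc6a6 (-0.11 to 0.26), Slc7a4 (-0.14 to 0.48) and Slc43a2 (-0.05 to 0.49). The cause of these changes was not tested. Slc1a1 (1.76 to 3.19) and Slc3a2 (-0.5 to -0.27) kept their direction. Per kilobase of the longest transcript, the level in LLRCs moved from 1.5 to 3.26 for Slc1a1 and from 16.4 to 20.6 for Slc3a2, and those of Slc38a2, Slc7a11 and Slc38a1 moved to 11.2, 0.352 and 0.204. Without mouse JV621, Slc38a1 did not pass the filter and gave no value. Slc1a2, Slc1a3 and Slc7a5 did not pass the expression filter and were compared by the exact permutation test.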
